A study of Mus musculus with 9 samples.

Results

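A group of 8 genes was followed in HT22 cells, namely Chil1, Lcn2, Orm1, Serpina3n, Saa3, Hp, C3 and Il33, out of 54532 genes with a deposited value. The members were taken by name. They were chosen by their FPKM in earlier results of the same libraries, so their levels and differences are given here as a description, without a test. HT22 is an immortalized line derived from mouse hippocampal neurons, and all cells were labelled wild type (WT) and kept in high-glucose DMEM with FBS. The 9 RNA-seq libraries formed 3 groups of 3. Control cells received no treatment. OGP cells were held for 2 h in oxygen-glucose deprivation (OGD) and then reoxygenated over 24 h in the presence of PBS. OGE cells went through the same deprivation and reoxygenation, but with hiPS-MSC-EVs, the extracellular vesicles of mesenchymal stem cells made from human induced pluripotent stem cells. The sources used here differ on whether the medium after OGD held serum. A difference in serum between OGP and OGE therefore cannot be told apart from the EVs. Likewise, a difference in serum between control and either other group cannot be told apart from OGD. The labels and the description of the sequencing tie no dose of EVs to these libraries. Nothing in the labels says that the libraries of a group came from separate cultures, so p-values measure only the spread between these libraries, which may be technical. HT22 is 1 line, and fewer cells that express a gene and less RNA per cell cannot be told apart in such bulk libraries.

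The acute-phase response is the change in secreted proteins that follows infection or injury. It is best known in liver, where interleukin-6 type cytokines act through STAT3 and where interleukin-1 acts through NF-kB and C/EBP factors on genes for plasma proteins. In the brain, several of the same genes mark reactive astrocytes after ischemia. Chil1 encodes a secreted chitinase-like protein without chitinase activity, Lcn2 a lipocalin that binds iron-carrying siderophores, and Orm1 alpha-1-acid glycoprotein, a plasma carrier protein. Serpina3n encodes a secreted inhibitor of serine proteases, Saa3 a serum amyloid A protein made mainly outside the liver, and Hp haptoglobin, which binds free hemoglobin. C3 is the central component of complement. Il33 encodes a nuclear cytokine of the interleukin-1 family that is released from damaged cells and signals through the receptor encoded by Il1rl1.

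Values are FPKM, the fragments per kilobase of gene length scaled to library depth, which can be compared between genes because they are per length. The libraries held 15026700 to 19476806 reads in genes. Correlations of log2(FPKM + 0.5) were 0.969 to 0.988 within groups and 0.949 to 0.97 between groups. Control replicate 1 and OGE replicate 3 lay apart on the third principal component, at 33.1 and -19.4. Mitochondrial genes took 1.1% to 2.31% of reads in control, 2.45% to 3.25% in OGP and 2.03% to 2.9% in OGE, and the part of this difference in the results below was not tested.

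Upstream sequence was read for 6 of the 8 genes from the RefSeq promoter table (build GRCm38.p6). Orm1 and Hp had no entry. The 4 sequences below are shown because they cover the different patterns described later. Chil1 differed most between OGE and OGP. Among the genes that were lower in OGP than in control, Saa3 differed least between those 2 groups. Il33 stayed low in OGE, and C3 was lower only in OGE. Each sequence is written 5′ to 3′ on the strand of the gene and ends at the base before the RefSeq start. As an exception, the Saa3 sequence leaves out bases inside an annotated exon. Capitals mark matches to one of the motifs named after the sequences. Chil1 lies at chr1:134181906-134182155 on the plus strand, Saa3 at chr7:46715701-46715926 on the minus strand, Il33 at chr19:29945540-29945789 on the plus strand before the second of its RefSeq starts, and C3 at chr17:57228137-57228386 on the minus strand.
Chil1: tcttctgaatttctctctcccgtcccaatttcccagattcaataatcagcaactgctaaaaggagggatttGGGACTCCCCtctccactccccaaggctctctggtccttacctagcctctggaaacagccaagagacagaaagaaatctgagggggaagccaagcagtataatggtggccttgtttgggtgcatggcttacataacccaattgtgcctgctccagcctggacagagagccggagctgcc
Saa3: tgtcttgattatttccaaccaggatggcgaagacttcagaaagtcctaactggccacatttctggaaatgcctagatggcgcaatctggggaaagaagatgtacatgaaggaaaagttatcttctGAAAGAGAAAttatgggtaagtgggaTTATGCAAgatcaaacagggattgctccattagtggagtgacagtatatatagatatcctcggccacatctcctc
Il33: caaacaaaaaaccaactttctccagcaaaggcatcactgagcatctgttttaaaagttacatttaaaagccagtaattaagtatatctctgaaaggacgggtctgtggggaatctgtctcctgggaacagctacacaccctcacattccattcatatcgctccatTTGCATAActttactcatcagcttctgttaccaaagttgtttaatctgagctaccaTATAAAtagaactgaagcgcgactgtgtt
C3: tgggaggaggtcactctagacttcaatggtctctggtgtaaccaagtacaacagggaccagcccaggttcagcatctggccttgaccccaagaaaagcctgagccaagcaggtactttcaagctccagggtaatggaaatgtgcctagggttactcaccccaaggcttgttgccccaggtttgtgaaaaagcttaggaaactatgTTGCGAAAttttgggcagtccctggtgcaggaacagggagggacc

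Both strands of the 250 bases upstream of each start were searched. The letters used were TTCNNNGAA for STAT, TTNNGCAA for C/EBP, TGANTCA for AP-1, TATAAA for the TATA box, and NF-kB and the interferon-response element were searched by their consensus. Of 32851 such windows in the table, 7.02% held the STAT letters, 9.56% C/EBP, 6.75% AP-1, 2.98% interferon-response, 12.4% TATA box and 3.9% NF-kB. The C/EBP search was first run with the looser letters TTNNGNAA, which matched 36.8% of all windows and all 7 windows of the 6 genes, and the stricter letters were chosen after that result had been seen. With the stricter letters a match was found for Saa3, C3, Lcn2 and the second start of Il33, and none for Chil1, Serpina3n or the first start of Il33. The Lcn2 window lies within the annotated gene and overlaps annotated exons. Its match, at -216 to -209, lies outside the longest stretch of that window that is free of exons. Chil1 held the NF-kB match GGGACTCCCC from base -179 to -170, counted back from -1 at the base before the start. Saa3 held TTATGCAA at -99 to -92 and the interferon-response match GAAAGAGAAA at -125 to -116, which do not overlap. C3 held TTGCGAAA at -45 to -38, and Il33 held TTGCATAA at -85 to -78 with TATAAA at -29 to -24. The STAT and AP-1 letters were found in none of the 7 windows. These are matches of letters and no sites of binding, and a missing match says only that the letters are not in this window.

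In control cells the 8 genes spanned a wide range of levels. Saa3 was highest at 39.9 ± 7.66 FPKM (SD, n = 3, as for all such values), followed by Il33 at 38.0 ± 7.52, Chil1 at 28.8 ± 3.87, Lcn2 at 24.9 ± 4.98 and C3 at 23 ± 1.21. Neighbours among these 5 overlapped each other. Orm1 was next at 5.99 ± 1.06 FPKM, then Serpina3n at 2.69 ± 0.376 and Hp at 0.649 ± 0.248, without overlap between neighbours. In OGP the order was C3, Saa3, Il33, Lcn2, Chil1, Serpina3n, Orm1 and Hp, and neighbours overlapped only from Serpina3n downward. In OGE it was Saa3, C3, Chil1, Il33, Lcn2, Orm1, Serpina3n and Hp, where C3 overlapped Chil1 and Orm1 overlapped Serpina3n. Chil1 thus held the third place in control, the fifth in OGP and the third in OGE.

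**Figure D1:**
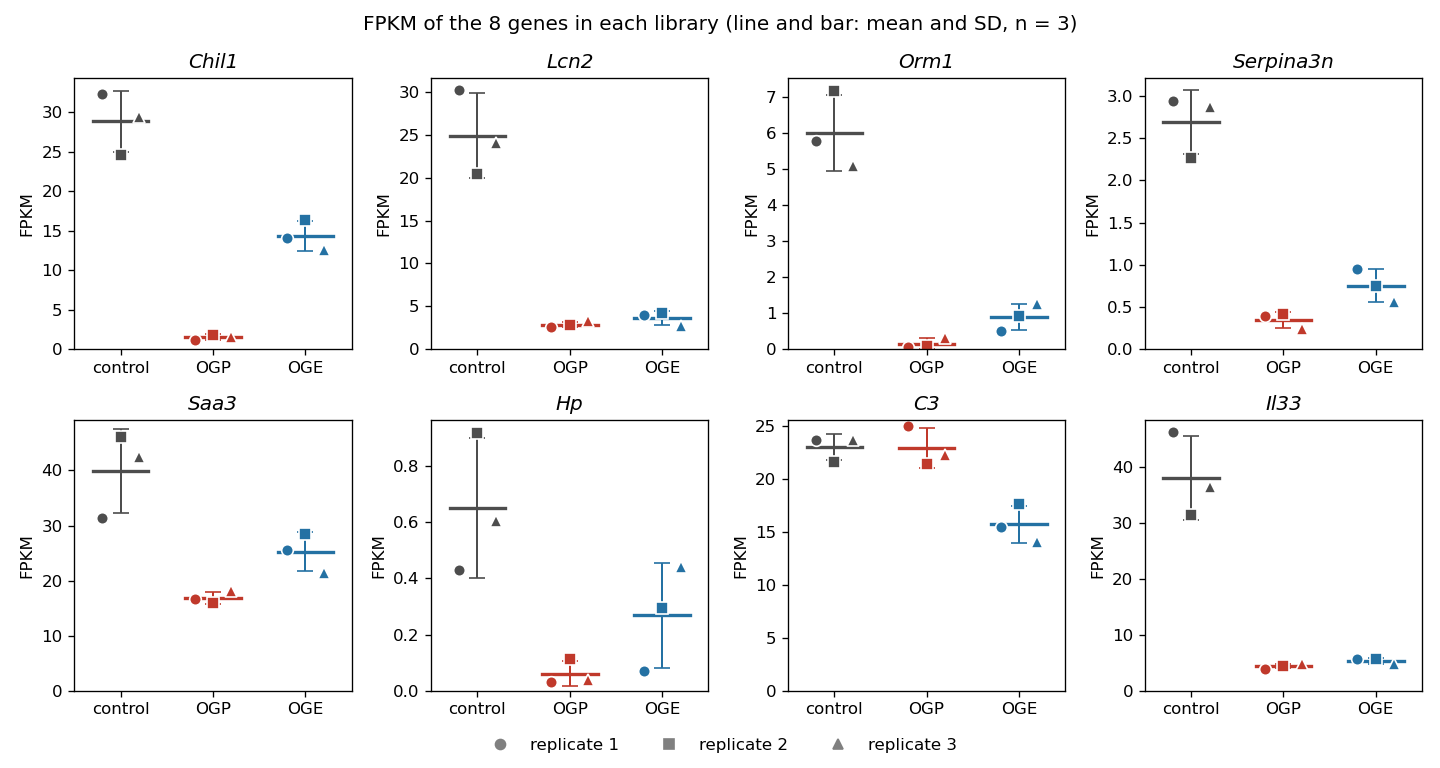
FPKM (vertical axes, linear and from 0) of the 8 genes in each library of control, OGP and OGE, with the mean as a line and the SD as a bar (n = 3) and a marker shape per replicate. All genes but C3 are lower in OGP than in control without overlap, and Chil1 in OGE lies between both other groups at 12.5 to 16.3 FPKM.

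Chil1 (ENSMUSG00000064246) lies on chromosome 1 from 134182176 to 134190181 on the plus strand of mm10. Its level was 32.3, 24.6 and 29.4 FPKM in control replicates 1 to 3, 1.1, 1.83 and 1.56 in OGP, and 14.1, 16.3 and 12.5 in OGE. The 3 groups did not overlap in any pair. The control mean was 19.2 times the OGP mean, and the OGE mean was 9.58 times the OGP mean and 49.8% of control. On the log2(FPKM + 0.5) scale OGP minus control was -3.88 (SE 0.158), OGE minus OGP was 2.9 (SE 0.158) and OGE minus control was -0.98 (SE 0.158). Behind these values were 4283, 216 and 2025 reads over the control, OGP and OGE libraries. Among other genes of the chitinase family, Chid1 was at 3.68 ± 0.396 FPKM in control and 4.95 ± 0.128 in OGP, above Chil1 there, and Ovgp1 was at 1.25 ± 0.287 in OGP, where it overlapped Chil1. Chil3, Chil4, Chil5, Chil6 and Chia1 had 0 reads in all 9 libraries, and Chit1, an active chitinase, had a mean of 0.0169 FPKM.

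Lcn2 (ENSMUSG00000026822) lies on chromosome 2 from 32384633 to 32388252 on the minus strand. Control replicates 1 to 3 gave 30.2, 20.4 and 24.0 FPKM, OGP 2.6, 2.79 and 3.23, and OGE 4.0, 4.21 and 2.68. OGP and OGE overlapped each other, since OGE replicate 3 lay among the OGP values, and both lay below control. The OGP mean was 11.6% and the OGE mean 14.6% of control. OGP minus control was -2.9 (SE 0.179) and OGE minus OGP 0.27 (SE 0.179) in log2(FPKM + 0.5).

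Il33 (ENSMUSG00000024810), on chromosome 19 from 29925114 to 29960718 on the plus strand, followed Lcn2 closely. It was at 46.2, 31.4 and 36.4 FPKM in control, 3.97, 4.44 and 4.79 in OGP, and 5.61, 5.61 and 4.71 in OGE. OGE replicate 3 again lay within the range of OGP, and control lay above both groups. OGP minus control was -2.96 (SE 0.139) and OGE minus OGP 0.24 (SE 0.139) in log2(FPKM + 0.5), and OGE stood at 14.0% of control. Over the 9 libraries Lcn2 and Il33 had Pearson's r of 0.998, and their deviations from the group means had 0.924. Both were highest in control replicate 1 and lowest in OGE replicate 3 within those groups, the libraries that lie apart, and the part of these libraries in that likeness was not tested.

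Orm1 (ENSMUSG00000039196), on chromosome 4 from 63344560 to 63348163 on the plus strand, had 5.76, 7.15 and 5.07 FPKM in control, 0.0652, 0.0788 and 0.317 in OGP, and 0.506, 0.914 and 1.25 in OGE. The groups did not overlap. The OGP values stand for 1, 1 and 4 reads and the OGE values for 7, 12 and 15, against 245 reads over the control libraries. Per read in genes, control was 40.1 times OGP (exact 95% interval 18.2 to 110.0) and OGE 6.0 times OGP (2.49 to 17.5), intervals that cover counting error only. OGE was at 14.8% of control. Orm2 and Orm3, close paralogs on the same chromosome that could share reads with Orm1, were at 1.12 ± 0.451 and 0.907 ± 0.375 FPKM in control.

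Serpina3n (ENSMUSG00000021091), on chromosome 12 from 104406729 to 104414329 on the plus strand, had 2.94, 2.26 and 2.87 FPKM in control, 0.392, 0.414 and 0.238 in OGP, and 0.951, 0.744 and 0.562 in OGE. No pair of groups overlapped. OGP minus control was -1.91 (SE 0.166) and OGE minus OGP 0.56 (SE 0.166) in log2(FPKM + 0.5), a scale that understates differences of genes this low. In FPKM, OGE was 2.16 times OGP and 28.0% of control. The gene belongs to a cluster of near copies, so reads could be split between them. Of that cluster Serpina3h, at 14.3 ± 0.739 FPKM, exceeded Serpina3n in control, and Serpina3a, Serpina3b, Serpina3c and Serpina3j had 0 reads throughout.

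Saa3 (ENSMUSG00000040026), on chromosome 7 from 46711998 to 46715700 on the minus strand, had 31.3, 46.0 and 42.4 FPKM in control, 16.6, 16.0 and 18.1 in OGP, and 25.6, 28.5 and 21.4 in OGE. The 3 groups were ordered as control, OGE and OGP without overlap. OGP was 42.4% and OGE 63.1% of control. The log2 differences of (FPKM + 0.5) were -1.2 (SE 0.15) for OGP minus control and 0.55 (SE 0.15) for OGE minus OGP. Control replicate 1 was the lowest control library here, whereas it was the highest for Chil1, Lcn2 and Il33. Saa1, Saa2 and Saa4, the other serum amyloid A genes of the file, had means of 0.0956, 0.19 and 0.102 FPKM.

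Hp (ENSMUSG00000031722), on chromosome 8 from 109575128 to 109579172 on the minus strand, was near the limit of detection and below the mean of 0.5 FPKM asked of tested genes. Control gave 0.428, 0.917 and 0.603 FPKM, OGP 0.0314, 0.114 and 0.0383, and OGE 0.0698, 0.294 and 0.441. These values stand for 12, 25 and 18 reads in control, 1, 3 and 1 in OGP, and 2, 8 and 11 in OGE. OGP lay below control, and OGE overlapped both. Per read in genes, control was 10.8 times OGP, with an exact 95% interval of 4.36 to 34.6 for counting error.

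C3 (ENSMUSG00000024164), on chromosome 17 from 57203970 to 57228136 on the minus strand, differed from the other 7 genes. It was at 23.7, 21.6 and 23.7 FPKM in control, 25.0, 21.4 and 22.3 in OGP, and 15.5, 17.6 and 14.0 in OGE. Control and OGP overlapped, with a log2 difference of -0.01 (SE 0.0984), and all OGE libraries lay below both groups. OGE minus OGP was -0.54 (SE 0.0984) in log2(FPKM + 0.5), and OGE was at 68.2% of control. C3 was thus lower in OGE than in OGP, where Saa3, Serpina3n, Orm1 and Chil1 were higher. The counting of strand was not stated, but no gene of GENCODE M21 overlaps any of the 8 on the opposite strand.

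**Figure D2:**
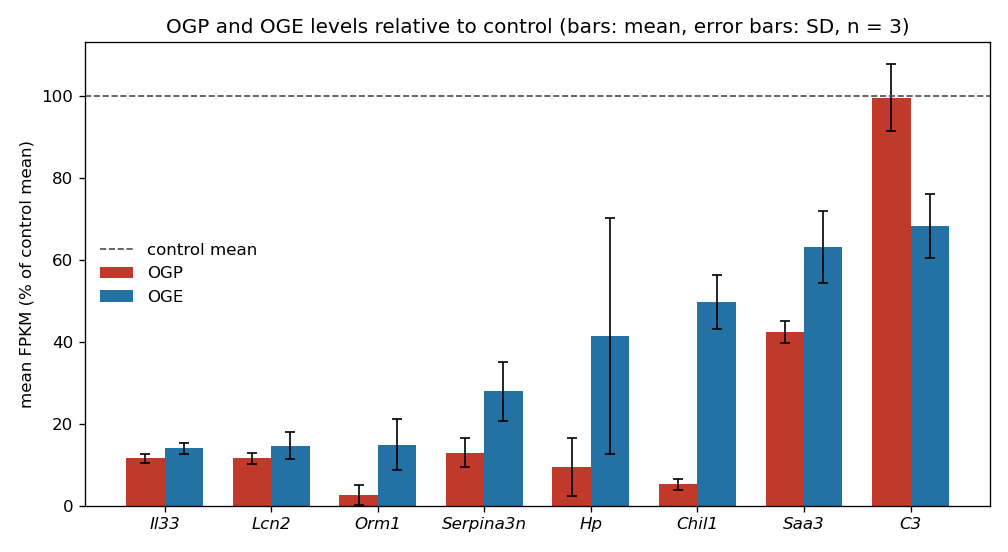
Mean FPKM of OGP and OGE as a percentage of the control mean (vertical axis, from 0; dashed line at the control mean), with the SD over 3 libraries as error bars, for the 8 genes in the order of their OGE level. Il33, Lcn2 and Orm1 are at 14.0% to 14.8% of control in OGE, Chil1 is at 49.8%, and C3 alone has its lower value in OGE.

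Across the group, 7 of the 8 genes were lower in OGP than in control with no overlap between libraries, where 22.6% of the 13245 tested genes were lower without overlap. These 7 include Hp, which was not tested and so is no part of that share. In OGE against OGP, 4 genes were higher without overlap (23.3% of all tested genes) and 1 was lower (22.0%). In OGE against control, 7 were lower without overlap (19.6%). The median log2 difference over the 7 tested genes was -2.9, 0.55 and -1.35 in the 3 comparisons, beside 0.01, 0.0 and 0.0 over all tested genes. The members were chosen with these contrasts known, so nothing is read from these counts. The comparisons share the OGP or control libraries.

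The members were also compared with the genes whose levels over the 9 libraries were most like theirs, by Pearson's r of log2(FPKM + 0.5), as a description. For Chil1 these were Pxylp1 (r = 0.993), Gfra1, a receptor for GDNF (0.992), and Il1r1, the receptor for interleukin-1 (0.988). For Lcn2 they were Rapgefl1 (0.99), the hyaluronan synthase gene Has2 (0.988) and Draxin (0.988), and for Il33 Rapgefl1 (0.993), Fzd4 (0.991) and Sytl2 (0.989). Orm1 was most like Igsf3 (0.993), the interferon receptor gene Ifnar2 (0.987) and Acsl1 (0.985). Serpina3n was most like Sprr2g (0.992), Polh (0.989) and Rnf216 (0.985), and Saa3 most like Mb21d2 (0.983), Ptdss1 (0.979) and the glycolytic gene Pgam1 (0.976). C3 was most like Parp14 (0.971), Lgals3bp (0.968) and Zc3hav1 (0.962). The likeness is one of 3 group means as much as of 9 libraries: 83 tested genes had r above 0.95 with Chil1 and 138 with Il33, against 14 with C3.

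Genes around the members were then tested in lists of relatives, receptors, regulators and partners. A gene was called when its adjusted p was 0.05 or lower and its fold 1.5 or higher. Of 239 such genes 112 were tested, and 14 rose and 16 fell in OGP against control, beside 6.38% and 5.74% of all tested genes that rose and fell. In OGE against OGP 15 rose and 13 fell, beside 3.39% and 4.73%. The median log2 difference over the tested companion genes was -0.04 and 0.05 in the 2 comparisons.

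Among 40 other acute-phase genes, 11 were tested, 3 fell and 1 rose in OGP against control. Ptx3, encoding pentraxin 3, fell from 610.0 ± 48.1 to 207.0 ± 7.67 FPKM (log2 difference -1.55, SE 0.0888, adjusted p = 1.06e-05, limma) and was at 217.0 ± 13.6 in OGE, with a difference from OGP of 0.06 (adjusted p = 0.65, limma). Lbp, encoding the lipopolysaccharide-binding protein, fell by 1.41 (adjusted p = 4.67e-05, limma), and Orm2 fell by 0.97 (adjusted p = 0.0112, limma) on few reads. Orm2 was at 1.12 ± 0.451, 0.315 ± 0.136 and 0.662 ± 0.116 FPKM in control, OGP and OGE. Its mean reached the 0.5 FPKM asked of tested genes only through control, so its call is a description. The ferroxidase gene Cp, encoding ceruloplasmin, rose by 0.63 in OGP (adjusted p = 0.0126, limma) and by a further 0.64 in OGE (adjusted p = 0.0167, limma), the only one of the 11 that passed in OGE against OGP. Cp did not pass without control replicate 2 in OGP against control (0.46), nor without OGP replicate 2, OGE replicate 1 or OGE replicate 2 in OGE against OGP (0.64, 0.63 and 0.58). Ptx3 and Lbp shared with Lcn2 and Il33 a low level in both OGP and OGE. Ifitm3 and Mt1, at 2070.0 and 205.0 FPKM in control, did not pass in either comparison, but under quantile normalization Ifitm3 passed in OGP against control (-0.68, against -0.17) and Mt1 in OGE against OGP (0.65, against 0.44). Of the chitinase, lipocalin and serpin relatives 6 of 34 were tested. Serpina3h fell by 1.07 (adjusted p = 0.0015, limma) and Serpina3i by 0.97 (adjusted p = 0.00415, limma) in OGP, Ovgp1 rose by 0.74 (adjusted p = 0.0202, limma), and none passed in OGE against OGP at the adjusted threshold and fold, where Chid1 had -0.37 (adjusted p = 0.0203, limma). Ovgp1 did not pass without control replicate 2, OGP replicate 2 or OGP replicate 3 (0.57, 0.78 and 0.61), nor with a pseudocount of 1 (0.54) or no filter on low values (0.74).

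The complement list held 50 genes, of which 11 were tested. Itgb2, a subunit of the receptors for fragments of C3, rose from 0.161 ± 0.012 to 0.586 ± 0.185 FPKM in OGP (log2 difference 0.7, adjusted p = 0.0151, limma) and to 1.47 ± 0.258 in OGE (0.86 above OGP, adjusted p = 0.00849, limma). The mean of Itgb2 reached the 0.5 FPKM asked of tested genes only through OGE, so its calls are a description. Itgam and Itgax of the same list were below that level, with means of 0.0 and 0.00141 FPKM. C1ra, a protease of the classical pathway, fell from 19.9 ± 1.51 in OGP to 12.8 ± 0.713 FPKM in OGE (-0.62, adjusted p = 0.001, limma) and was at 23.8 ± 1.27 in control. Itgb2 did not pass in OGP without OGP replicate 1 (0.57), with a pseudocount of 1 (0.44) or under quantile normalization (0.53), nor did C1ra in OGE without OGP replicate 1 (-0.57). C1ra had its lowest level in OGE, as did C3. C1qbp and Colec12, the other most abundant genes of the list, did not pass in these comparisons, although Colec12, at -0.58 in OGE against OGP, passed without OGP replicate 1, OGE replicate 1 or OGE replicate 2 (-0.59, -0.59 and -0.65), with a pseudocount of 0.1 (-0.59) or under median scaling (-0.62).

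Of 29 genes of the interleukin-1 family and its receptors 18 were tested. Il1rl1, which encodes the receptor of the Il33 product, was at 8.4 ± 1.26 FPKM in control and 9.36 ± 0.655 in OGP (log2 difference 0.16, adjusted p = 0.32, limma) and rose to 27.8 ± 2.08 in OGE (1.52 above OGP, SE 0.11, adjusted p = 2.84e-05, limma). The ligand gene thus stood at 14.0% of control in OGE while the receptor gene stood above both other groups. Il18rap, part of the receptor for interleukin-18, also rose in OGE against OGP, from 1.81 ± 0.443 to 5.23 ± 0.544 FPKM (1.33, adjusted p = 0.0014, limma). Il18r1 of the same list was below the level tested, at a mean of 0.039 FPKM. Il1r1 fell by 0.97 in OGP (adjusted p = 6.59e-05, limma) and rose by 0.68 in OGE (adjusted p = 0.000438, limma). The adaptor gene Myd88 fell by 0.82 in OGP (adjusted p = 8.43e-05, limma) and differed by -0.07 between OGE and OGP (adjusted p = 0.529, limma). Il18 rose by 0.73 in OGP and fell by 0.64 in OGE (adjusted p = 0.0137 and 0.0323, limma), and Sigirr, an inhibitory receptor, rose by 0.64 in OGP (adjusted p = 0.00511, limma). Sigirr did not pass without control replicate 1 (0.51). Il18 did not pass in OGP without OGP replicate 2 or 3 (0.68 and 0.67), nor in OGE against OGP without OGP replicate 2 or 3 or OGE replicate 1 or 3 (-0.59, -0.58, -0.68 and -0.47). The OGE call of Il18 was also lost under the replicate block and with no filter on low values (-0.64 in both).

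Among receptors and carriers of the member proteins, 13 of 19 were tested. Sdc1, encoding the cell-surface proteoglycan syndecan-1, fell from 63.8 ± 7.99 to 25.2 ± 1.08 FPKM (-1.31, adjusted p = 4.74e-05, limma) and rose to 49.9 ± 2.99 in OGE (0.97, adjusted p = 0.000218, limma), a pattern of the same direction as Chil1. Tlr4 rose by 1.06 in OGP (adjusted p = 0.00219, limma), and Scarb1, encoding a receptor for high-density lipoprotein, fell by 0.62 (adjusted p = 0.00301, limma). In OGE against OGP the heme oxygenase gene Hmox1 rose by 0.88 (adjusted p = 0.000145, limma) and Mmp9, whose product binds that of Lcn2, fell by 0.61 (adjusted p = 0.0163, limma). Mmp9 was low throughout, at 0.927 ± 0.0461, 0.657 ± 0.0541 and 0.262 ± 0.062 FPKM in control, OGP and OGE. Its mean reached the level asked of tested genes only through control and OGP. Tlr2 rose by 0.73 in OGP and Lrp1 rose by 0.63 in OGE against OGP, both picked after their values were seen. Lrp1 did not pass under the replicate block or with no filter on low values (0.63 in both), nor without OGP replicate 2 or 3 or OGE replicate 1, 2 or 3 (0.54, 0.51, 0.66, 0.68 and 0.54). In OGP against control Lrp1 did not pass (-0.38), but it passed as lower without OGP replicate 1 (-0.59). In OGE against OGP Tlr2 did not pass (-0.54). It passed as lower without OGP replicate 1, OGE replicate 1 or OGE replicate 2 (-0.6, -0.59 and -0.61). Scarb1 did not pass without control replicate 2 or OGP replicate 2 (-0.54 and -0.57), nor Mmp9 without OGP replicate 3, OGE replicate 2 or OGE replicate 3 (-0.57, -0.58 and -0.57). Scarb1 also failed under quantile normalization (-0.57) and median scaling (-0.58), and Mmp9 with a pseudocount of 1 (-0.39) and under quantile normalization (-0.57). Cd44 did not pass in either comparison.

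**Figure D3:**
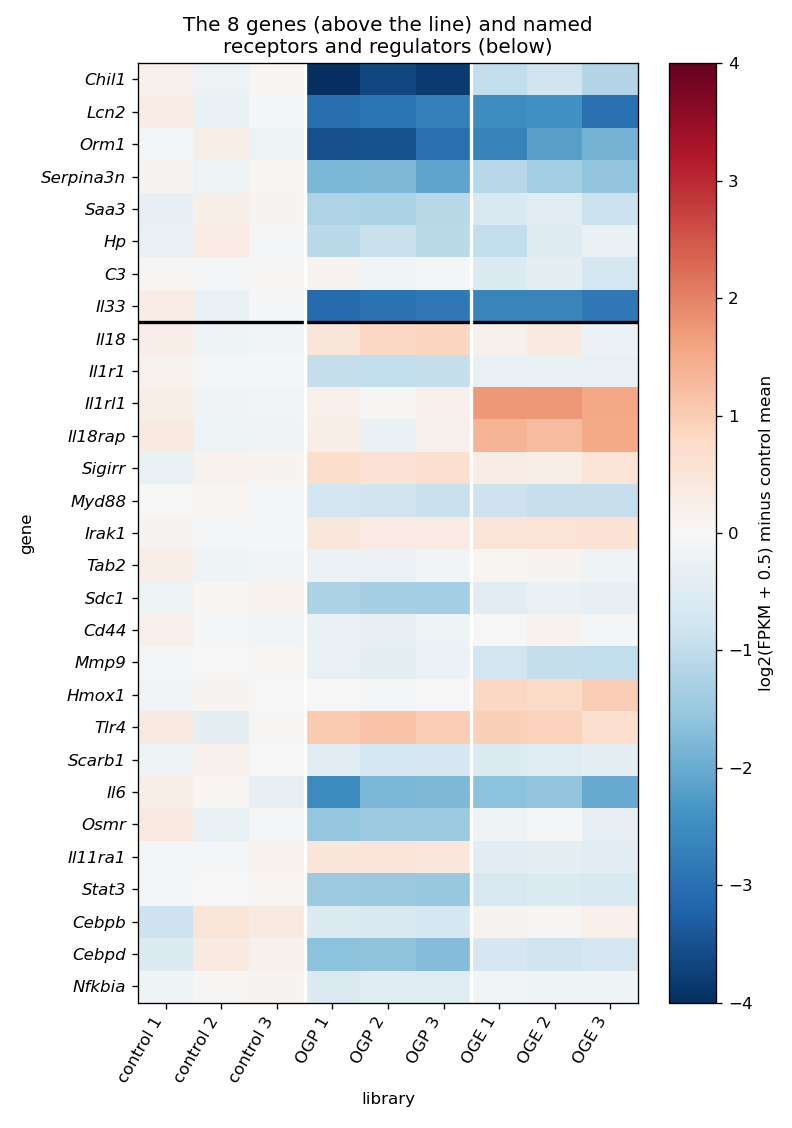
log2(FPKM + 0.5) in each library minus the control mean (colour, from -4 to 4; columns are libraries) for the 8 genes above the line and the named interleukin-1, receptor and regulator genes below it. Osmr, Stat3, Cebpd and Sdc1 are low in OGP and closer to control in OGE, as Chil1 is, while Il1rl1 and Il18rap are high in OGE.

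Regulators of acute-phase genes gave 33 tested genes of 39, of which 6 fell and 1 rose in OGP against control, and 5 rose and 2 fell in OGE against OGP. Il6, the cytokine gene, fell from 14.1 ± 2.85 to 3.04 ± 0.959 FPKM in OGP (-2.06, adjusted p = 0.000302, limma) and was 3.81 ± 0.689 in OGE (0.31 above OGP, adjusted p = 0.377, limma). Osmr, the oncostatin M receptor gene, fell by 1.49 (adjusted p = 0.000214, limma) and rose by 1.3 in OGE against OGP (adjusted p = 0.000473, limma). Stat3 fell from 33.7 ± 1.3 to 11.8 ± 0.344 FPKM (-1.48, adjusted p = 3.55e-06, limma) and rose to 22.0 ± 0.62 in OGE (0.88, adjusted p = 3.1e-05, limma). Cebpd, encoding a C/EBP factor, fell by 1.66 (adjusted p = 0.000409, limma) and rose by 0.94 (adjusted p = 0.00947, limma). Il11ra1 fell by 0.89 in OGE against OGP (adjusted p = 9.12e-05, limma). Cebpb had 89.3 ± 37.4 FPKM in control and did not pass in either comparison (adjusted p = 0.113 and 0.0865, limma), nor did Nfkbia, whose differences were under the fold asked. Without control replicate 1, which had the lowest Cebpb level, Cebpb passed in both comparisons (-1.07 and 0.77) and Nfkbia passed in OGP (-0.59). Cebpb also passed in OGE against OGP under quantile normalization (0.92), with only the 2 groups compared (0.77) and with voom (0.8). Genes of this list that passed and were picked after their values were seen were Socs3, Tnfrsf1a and Lif in OGP against control, and Socs3, Il6ra and Nfkbie in OGE against OGP.

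Of 35 reactive astrocyte genes 26 were tested, with 7 that rose and 3 that fell in OGP against control, and 4 that rose and 8 that fell in OGE against OGP. The list shares Ptx3, Cp and Osmr with those above. Timp1, encoding an inhibitor of metalloproteinases, fell from 251.0 ± 38.6 to 98.7 ± 4.69 FPKM (-1.33, adjusted p = 7.82e-05, limma) and rose to 248.0 ± 4.09 in OGE (1.33, adjusted p = 6.62e-05, limma). Cxcl10, a chemokine gene, did not pass in OGP (-0.17, adjusted p = 0.409, limma) and fell from 160.0 ± 8.3 to 22.9 ± 4.63 FPKM in OGE against OGP (-2.8, adjusted p = 5.45e-06, limma). Gbp2 and Fbln5 rose in OGP by 0.9 and 1.16 and then fell, with log2 differences between OGE and OGP of -1.89 and -1.44 (adjusted p = 0.0021, 1.68e-05, 4.06e-05 and 4.51e-06, limma). S100a10 rose by 0.68 and fell by 0.85 (adjusted p = 0.00318 and 0.00153, limma), and its rise did not pass under quantile normalization (0.45). Vim did not pass in either comparison.

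**Figure D4:**
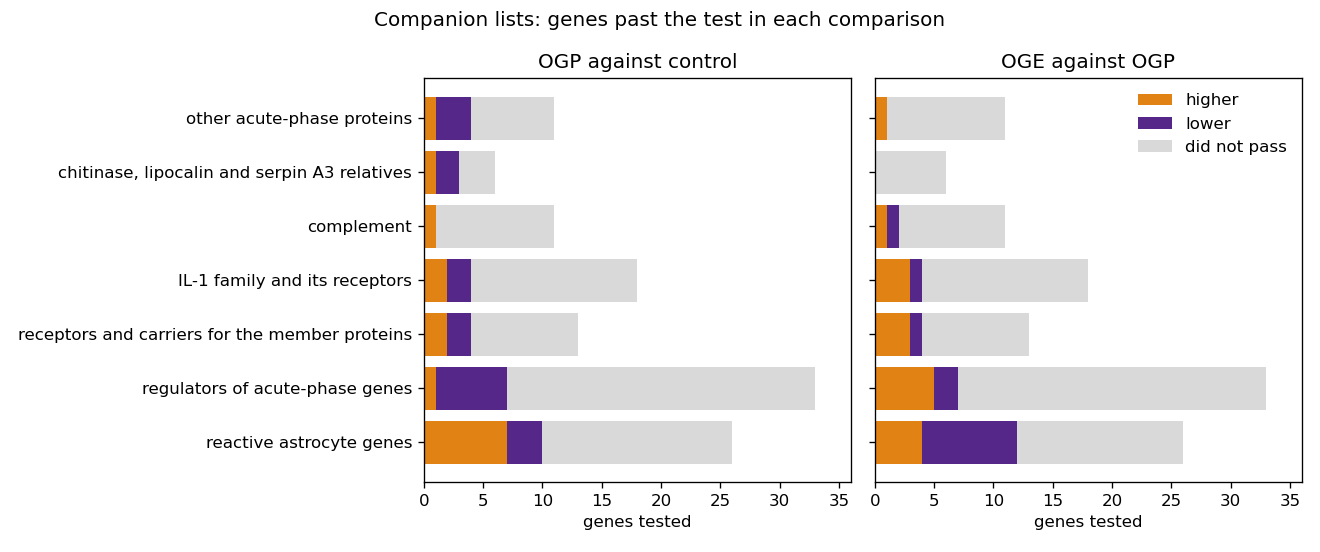
Number of tested genes of each companion list (horizontal axis) that were higher, lower or did not pass (adjusted p at most 0.05 and fold at least 1.5, limma) in the comparisons of OGP with control and of OGE with OGP. Of the regulators of acute-phase genes 6 of 33 are lower in OGP and 5 of 33 are higher in OGE, and 8 of 26 reactive astrocyte genes are lower in OGE.

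Neutrophil, hepatocyte and epithelial markers were at low levels. Of 13 neutrophil markers 6 (S100a9, Ngp, Mpo, Ly6g, Csf3r and Retnlg) had a value of 0 in every library and 1, Camp, was tested. Camp was at 1.11 ± 0.53, 0.272 ± 0.169 and 0.454 ± 0.348 FPKM in control, OGP and OGE. It had a log2 difference of -1.04 in OGP against control (adjusted p = 0.0453, limma). The mean of Camp reached the level asked of tested genes only through control, so its call is a description. That call was kept by 7 of 19 alternatives. It was lost under the replicate block and without any of the control or OGP libraries (-1.22 to -0.78). The 13 summed to 1.0 to 1.86 FPKM in control, 0.327 to 0.516 in OGP and 0.287 to 0.802 in OGE. All 11 hepatocyte markers were below the level tested, with sums of 0.00462 to 1.2 FPKM over the libraries, and so were all 9 epithelial markers, with sums of 0.316 to 0.93. Of 9 astrocyte markers 4 were tested. Gfap, Aqp4, Slc1a2, Aldh1l1 and S100b were below the level tested, with means of 0.0632, 0.0, 0.0386, 0.081 and 0.0756 FPKM. Gja1 was at 30.9 ± 2.41, 13.9 ± 0.171 and 30.8 ± 4.23 FPKM in control, OGP and OGE. It fell in OGP (-1.13) and rose in OGE (1.11) (adjusted p = 0.000115 and 0.000116, limma), in the direction of Chil1. The other 3 tested were picked after their values were seen. Slc1a3 and Aldoc did not share the pattern of Gja1, while Sox9 went in the same direction. Slc1a3 was at 9.78 ± 1.01, 4.74 ± 0.783 and 2.84 ± 0.359 FPKM and fell in both comparisons (-0.98 and -0.64), though not in OGE against OGP with a pseudocount of 1 (-0.57) or without OGP replicate 2 (-0.54) or OGE replicate 3 (-0.56). Aldoc was at 0.433 ± 0.0325, 0.917 ± 0.0811 and 0.382 ± 0.0563 FPKM in control, OGP and OGE. Its mean reached the level asked of tested genes only through OGP, so its calls are a description. Aldoc rose in OGP (0.6) and fell in OGE (-0.68), but neither passed with a pseudocount of 1 (0.42 and -0.47). Its rise also failed under quantile normalization (0.48) and without control replicate 2 (0.57) or OGP replicate 3 (0.56). Sox9 was at 5.21 ± 0.639, 3.3 ± 0.145 and 9.74 ± 0.37 FPKM. It was lower in OGP but under the fold asked (-0.58), and it rose in OGE (1.43). In OGP it passed with a pseudocount of 0.1 or voom (-0.64 in both). It also passed there without control replicate 1 (-0.67), OGP replicate 1 (-0.59) or OGP replicate 3 (-0.61). Fibroblast and mesenchymal markers summed to 845.0 to 1180.0 FPKM in control, 736.0 to 805.0 in OGP and 490.0 to 593.0 in OGE. Of these 10 markers 6 were tested. Dcn, Lum, Thy1 and Fap were below the level tested, with means of 0.11, 0.0133, 0.00228 and 0.0614 FPKM. In OGP 2 rose and 2 fell, and in OGE against OGP 1 rose and 2 fell. Col1a1, the highest, fell by 1.0 in OGP (adjusted p = 0.0013, limma), while Acta2 and Col3a1 rose there by 0.93 and 0.78 (adjusted p = 0.000484 and 0.000959, limma). In OGE against OGP Acta2 and Col3a1 fell by 1.62 and 0.88 (adjusted p = 2.11e-05 and 0.000611, limma), and Col1a1 differed by -0.05 (adjusted p = 0.838, limma). Of 11 microglia and macrophage markers 3 were tested, led by Tmem119 at 14.4 ± 2.57 FPKM in control. Tmem119 fell by 0.9 in OGE against OGP (adjusted p = 0.00129, limma). Trem2 and Cd68 were picked after their values were seen, and Cd68 did not pass in either comparison. Trem2 was at 1.22 ± 0.145, 0.126 ± 0.0339 and 0.479 ± 0.157 FPKM in control, OGP and OGE. It fell in OGP (-1.45) and rose in OGE against OGP (0.63), a rise that 10 of 19 alternatives kept. The mean of Trem2 reached the level asked of tested genes only through control. Itgam, Adgre1 and Tyrobp were at 0.0 in every library, and Ptprc, Cx3cr1 and P2ry12 had means of 0.000746, 0.00141 and 0.0127 FPKM. Aif1 and Csf1r, also below the level tested, had means of 0.465 and 0.231 FPKM. For HT22, labelled as hippocampal cells, only Tubb3, Map2 and Eno2 of 16 neuron markers were tested. Dcx, Gad1 and Elavl4 were at 0 in every library, Rbfox3 and Syp were below the level tested, and Tubb3 was at 7.95 ± 1.52 FPKM in control. The part of any of these markers in the levels of the 8 genes was not tested.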

How the data were processed

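RNA-seq was made from 9 libraries of HT22 cells, 3 each of control, OGP and OGE. Per the labels and the study's methods, poly-T selected mRNA was sequenced, aligned with HISAT2 2.0.5 to mm10 and counted with featureCounts. The authors gave FPKM per gene, and these deposited FPKM were analysed. The sources used here name no tool for that step. RNA extraction is described as TRIZOL in the paper and as an RNeasy kit in the labels.

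Multiplying FPKM by gene length gave whole multiples of 1 step per library in 100% of values (tolerance 0.1), from which reads per gene were recovered. Testing covered the 13245 of 54532 genes whose mean reached 0.5 FPKM and used limma 3.58.1 (R 4.3.3) on log2(FPKM + 0.5), with a trended variance, 9 libraries and 3 groups in a single model and Benjamini-Hochberg adjustment over all tested genes. A gene rose or fell when its adjusted p was 0.05 or lower and its fold 1.5 or higher. The test was checked on simulated data. Values after ± are SD and SE is that of the fitted difference.

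The 8 members and the companion and marker lists were chosen with earlier results of these data known. From each companion list the 3 genes with the highest mean, and up to 3 with the smallest p among those that passed for OGP against control or for OGE against OGP, were named. Up to 3 markers of at least 10 FPKM were named per marker list, and the 3 genes with the highest r per member, without predicted loci. Likeness used log2(FPKM + 0.5). Alternatives were other pseudocounts (0.1 and 1), filters, scalings, a robust variance, 2 groups at a time, the replicate number as a block, voom on the recovered reads and leaving out each library.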

Additional observations from a re-analysis of the deposited data

How the results depend on the processing

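Over 20 alternatives the number of genes that passed stayed within 1.5 times the reported value in each comparison, at 1301 to 1967 for OGP against control (reported 1605), 889 to 1296 for OGE against OGP (1075) and 1232 to 2267 for OGE against control (1519). The companion genes that passed numbered 26 to 32, 26 to 33 and 32 to 38, beside 30, 28 and 35. The highest count in OGE against control came without control replicate 1 and OGE replicate 3, a choice made after the data had been seen. No named gene changed direction where it had passed. Of the members, the difference of Orm1 between OGP and control ranged from -5.23 with voom to -2.6 with a pseudocount of 1, and that of Serpina3n from -2.91 to -1.45. Between OGE and OGP, Orm1 ranged from 0.7 to 2.47 and Serpina3n from 0.37 to 1.12. Both genes have few reads in OGP. Losses and gains of calls in OGP against control and OGE against OGP are given with the genes whose calls are described, for Camp and Trem2 in part. Those of the fit without both libraries that lie apart are left out. With the replicate block 1581, 1043 and 1484 genes passed, and 30, 26 and 36 companion genes. Same-numbered libraries of different groups had correlated deviations (r above 0.1) in 2 of 9 pairs (-0.177 to 0.319), so the numbers were not taken to pair the libraries. Depth limits Hp and Orm1 most.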
